A study of Mus musculus with 6 samples.

Results

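The Notch pathway was examined through 10 genes: the receptors *Notch1*, *Notch2* and *Notch3*, the ligands *Jag1*, *Jag2* and *Dll1*, the target genes *Hes1*, *Hey1* and *Heyl*, and *Rbpj*, which encodes the DNA-binding factor of the pathway. They were chosen by gene symbol from the 26579 genes counted, and all 10 passed the filter on low counts that left 15102 genes for testing. RNA-Seq had been performed on whole dorsal neck skin of 3 female YAP2-5SA-∆C transgenic mice (TG) and 3 female wild type littermates (WT), all at postnatal day 33. The TG mice express a mildly activated YAP mutant, which lacks part of its C-terminus, in basal keratinocytes positive for Keratin 5 and Keratin 14. The WT mice do not carry the transgene. No agent was given to either group, and an inbred strain name was not given in the sources used here. Since the biopsies hold many cell types, fewer cells of a type and less RNA per cell cannot be told apart in any value below.

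Notch receptors are cell surface proteins that are bound by Jagged and Delta-like ligands on a neighbouring cell. Binding lets ADAM proteases and then γ-secretase cut the receptor, and the freed intracellular domain enters the nucleus, where it joins RBPJ and Mastermind-like coactivators to switch on target genes such as those of the HES and HEY repressor families. In the skin, Notch signalling is known for its part in the switch of epidermal keratinocytes from the basal to the suprabasal layers and in the upkeep of the hair follicle, while Notch3 and Heyl are also well known in the smooth muscle cells and pericytes of blood vessels.

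Between 11225705 and 19505036 counts were available per library, fewest in WT replicate 3. Levels are given as counts per 1000000 counts (CPM) of the library size after scaling by its trimmed mean of M-values (TMM) factor, and a gene was called when its Benjamini-Hochberg adjusted p (FDR) in edgeR's quasi-likelihood test was below 0.05. *Yap1* itself did not separate the genotypes (131 ± 9.47 CPM in WT and 136 ± 7.32 CPM in TG; SD, n = 3; log2 fold change 0.061, FDR = 0.635), and whether reads of the transgene were counted there is not given in the sources used here. Markers of 9 cell classes, 58 genes in all, were each counted in every library. TG replicate 2 stood apart in the summed level of 11 genes of the hair matrix, hair shaft and inner root sheath, with 1360 CPM against 6710 and 8648 CPM in the other TG libraries and 12818 to 16543 CPM in WT.

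Of the 10 Notch genes, 1 was called: *Notch1* fell in the TG skin. None was called higher. By comparison 1.91% of all genes tested were called in either direction, 1.44% higher and 0.464% lower. The estimated log2 fold changes (TG over WT) of the 10 genes had a median of -0.060, against -0.013 over all genes tested, with 5 above 0 and 5 below. The largest estimates below 0 belonged to *Heyl*, *Notch1* and *Jag1*, and the largest above 0 to *Rbpj*. The libraries of the genotypes did not overlap for 5 genes, namely *Notch1*, *Jag1*, *Hey1* and *Heyl* (lower in every TG library) and *Rbpj* (higher in every TG library), while 33.8% of all genes tested showed such a separation, 18.2% lower and 15.5% higher. An unadjusted p under 0.05 was found for 4 genes, 3 lower (*Notch1*, *Jag1* and *Heyl*) and 1 higher (*Rbpj*), against 26.3% of all genes tested, 13% lower and 13.3% higher. For each of these 5 the exact permutation test (two-sided) gave p = 0.1, the smallest value that 3 against 3 libraries allow. CPM were also computed on library size without the TMM factor, a choice made after seeing the data. There 3 genes separated (*Notch1*, *Jag1* and *Rbpj*), whereas *Hey1* and *Heyl* overlapped. The share of all genes that separate without the factor was not computed.

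**Figure D1:**
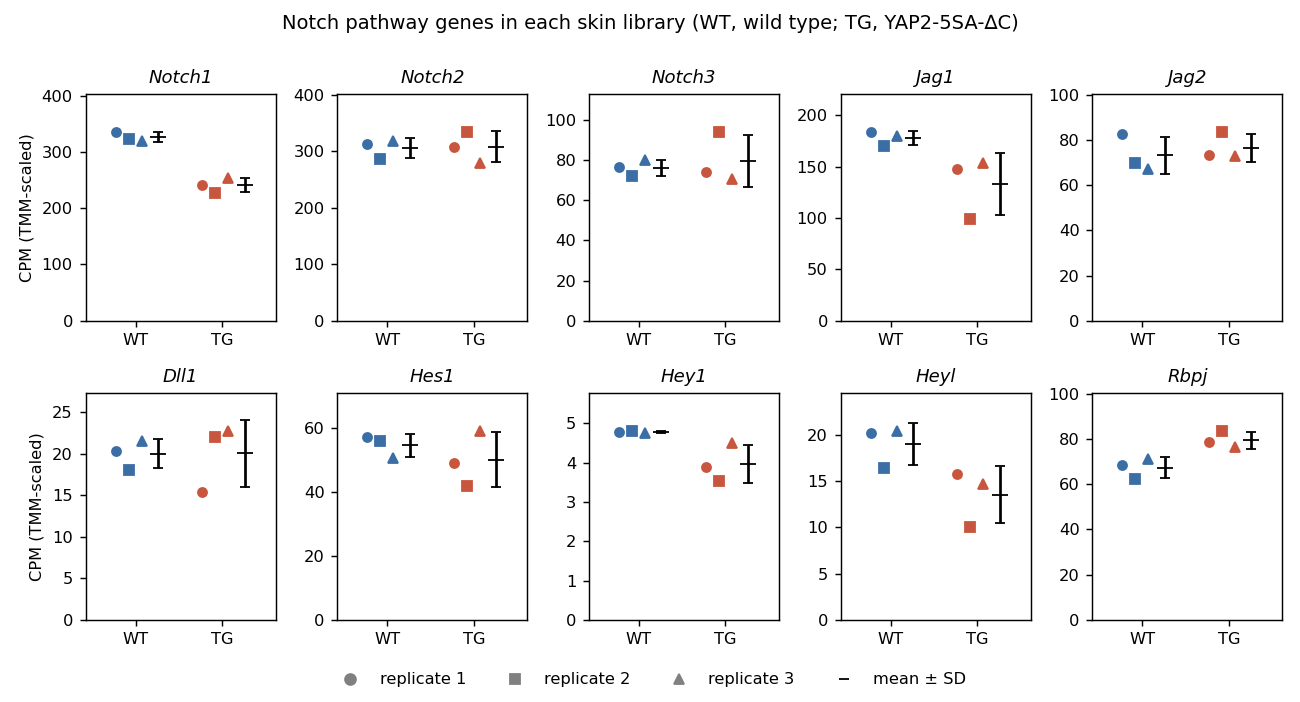
TMM-scaled CPM of each of the 10 Notch genes (one panel per gene, vertical axes from 0) in the 3 WT and 3 TG libraries; points are libraries, with a symbol for each replicate number, and bars are the mean ± SD. *Notch1* shows the clear step, from 319 to 336 CPM in WT down to 228 to 254 CPM in TG, while *Notch2*, *Notch3*, *Jag2*, *Dll1* and *Hes1* overlap.

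*Notch1*, the main Notch receptor of the epidermis, lies on the minus strand of chromosome 2 (GRCm38, chr2:26457903-26516663). It stood at 336, 323 and 319 CPM in WT replicates 1, 2 and 3, and at 242, 228 and 254 CPM in TG replicates 1, 2 and 3. Every TG library lay below every WT library, and the gap between the groups was wider than the spread within either (SD 8.84 in WT and 13.2 in TG). The log2 fold change was -0.44 (SE 0.06, 95% CI -0.59 to -0.29), which means that the level fell by 26.1% (FDR = 0.0398, edgeR's quasi-likelihood test). The same gene was called by the likelihood-ratio test (FDR = 0.0168), which called 10.4% of all genes tested, by voom (FDR = 0.0378; 1.65%) and by DESeq2 (FDR = 7.08e-06; 10.7%). In the direction of lower levels these tools called 4.87%, 0.417% and 4.26% of all genes. With 1 library left out at a time the estimate stayed between -0.47 and -0.38, and the gene was called only without TG replicate 2 (FDR = 0.0216), where 5.46% of all genes were called; without WT replicate 1, 2 or 3 the FDR was 0.0649, 0.178 or 0.135, and without TG replicate 1 or 3 it was 0.0688 or 0.0906. Of all genes, 0.949% were called without WT replicate 1 and 0.557% without TG replicate 1. Without WT replicate 2, WT replicate 3 or TG replicate 3 (0% in each) no gene at all was called, although 2726, 2844 and 3691 genes had an unadjusted p under 0.05 in these fits of the quasi-likelihood test. *Notch1* shares 1389 exon bases with genes on the opposite strand, *0610009E02Rik* and *Gm13568*, whose counts did not pass 16 in any library, against at least 3358 for *Notch1*.

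Basal keratinocytes are the cells in which the YAP mutant is expressed. Of 6 markers of these cells, 4 were higher in every TG library than in every WT library (15.5% of all genes tested were). *Trp63* and *Itgb4*, named to complete this count, overlapped. The summed level of 6 basal keratinocyte markers was 3315 to 3921 CPM in WT and 5406 to 6987 CPM in TG, and 1 of the 6 was called (1.44% of all genes tested were called higher). *Krt14*, a keratin of the basal layer, rose from 1648 ± 19.6 to 3187 ± 300.2 CPM (SD, n = 3; log2 fold change 0.95, FDR = 0.0300), a call that was lost without WT replicate 2, WT replicate 3 or TG replicate 3 (FDR = 0.172, 0.129 and 0.0906). The likelihood-ratio test called 3 of the 6 and DESeq2 called 4, against 5.52% and 6.48% of all genes called higher. The quasi-likelihood test called 2 with no filter on low counts or without TG replicate 2. In the fit without TG replicate 2, 5.46% of all genes were called in either direction. The sum over 6 suprabasal keratinocyte markers was 4780 to 5782 CPM in WT and 6052 to 10709 CPM in TG, with none called by the quasi-likelihood test (1 without TG replicate 2), 2 with an unadjusted p under 0.05 (13.3% of all genes tested in this direction), 1 called by the likelihood-ratio test and 2 by DESeq2. The part of these shifts in the lower *Notch1* level was not tested.

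*Notch2* and *Notch3* did not show the fall of *Notch1*. *Notch2*, a receptor found in many skin cell types (chr3:98013527-98150361, plus strand), stood at 313, 286 and 319 CPM in WT and at 308, 335 and 280.2 CPM in TG, so that the genotypes overlapped. Its log2 fold change was 0.0078 (SE 0.08, 95% CI -0.19 to 0.21, FDR = 0.959), and this interval leaves out a fall of the size of *Notch1*. *Notch3*, the receptor best known in vascular mural cells (chr17:32120820-32166852, minus strand), stood at 76.5, 72.1 and 80.2 CPM in WT and at 73.9, 94.3 and 70.5 CPM in TG. Only TG replicate 2 lay outside the WT range by more than 5 CPM, and the log2 fold change was 0.061 (SE 0.12, 95% CI -0.21 to 0.33, FDR = 0.767). The sum over 7 vascular mural markers was 360 to 435 CPM in WT and 376 to 408 CPM in TG, a sum over members with estimates in both directions (3 above 0 and 4 below). Whether the fold changes of the 3 receptors differ from each other was not tested.

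Among the ligands, *Jag1* had the lower TG values. *Jag1* encodes the Jagged ligand that is also prominent in the hair follicle (chr2:137081456-137116644, minus strand). It stood at 184, 171 and 180 CPM in WT, and at 148, 98.7 and 154 CPM in TG. All 3 TG libraries were below the WT range, with TG replicate 2 far below the other TG libraries. The log2 fold change was -0.42 (SE 0.16, 95% CI -0.79 to -0.04), with an unadjusted p of 0.0345 in edgeR's quasi-likelihood test, and it was not called (FDR = 0.156; DESeq2, 0.0805). Without TG replicate 2 the estimate was -0.22 (FDR = 0.0851).

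*Jag2* and *Dll1* overlapped between the genotypes. *Jag2*, the other Jagged ligand (chr12:112907819-112929776, minus strand), stood at 82.8, 70.0 and 67.4 CPM in WT and at 73.5, 83.8 and 72.8 CPM in TG (log2 fold change 0.064, SE 0.10, 95% CI -0.17 to 0.30, FDR = 0.715). *Dll1*, a Delta-like ligand that is known from epidermal progenitor cells (chr17:15367354-15376872, minus strand), stood at 20.3, 18.1 and 21.6 CPM in WT and at 15.4, 22.0 and 22.8 CPM in TG. TG replicate 1 was the lowest of the 6 libraries and TG replicate 3 the highest, and the log2 fold change was 0.0044 (SE 0.16, 95% CI -0.37 to 0.38, FDR = 0.987). The interval for *Dll1* runs from 0.773 to 1.3 times the WT level, so changes of either direction within it remain compatible with these libraries. *Dll1* shares 867 exon bases with *A930024N18Rik* on the opposite strand, which had at most 16 counts in a library.

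**Figure D2:**
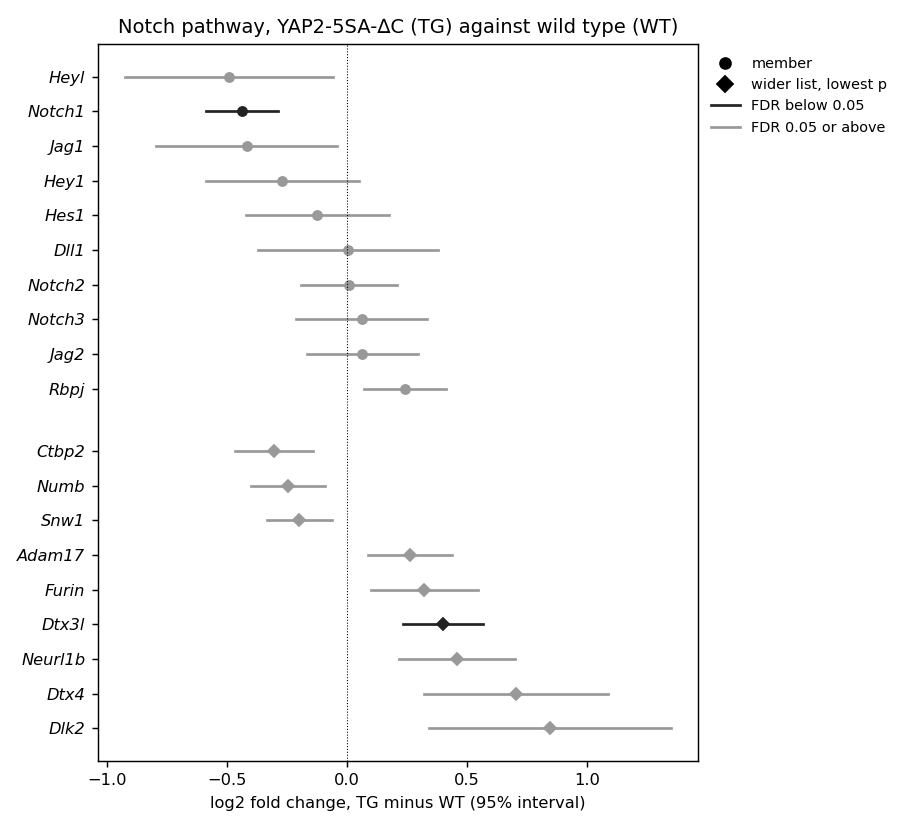
Log2 fold change (TG over WT, horizontal axis) of the 10 Notch genes (circles) and of 9 further pathway genes among those with the lowest p (diamonds), with points for the estimates of edgeR's quasi-likelihood fit and bars for their 95% confidence intervals; black marks an FDR below 0.05 and grey the rest. The interval of *Notch1* runs from -0.59 to -0.29 and that of *Rbpj* from 0.07 to 0.41, while those of *Notch2*, *Notch3*, *Jag2*, *Dll1*, *Hes1* and *Hey1* include 0.

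The target genes *Hes1*, *Hey1* and *Heyl* encode transcriptional repressors that are switched on by the receptor's intracellular domain together with RBPJ. All 3 estimates were below 0 and none was called by any of the 4 tools (quasi-likelihood, likelihood-ratio, voom and DESeq2), with 1 unadjusted p under 0.05 in the quasi-likelihood test. *Heyl*, the member best known from vascular smooth muscle (chr4:123233556-123249875, plus strand), stood at 20.2, 16.4 and 20.5 CPM in WT and at 15.8, 10.002 and 14.7 CPM in TG. The TG libraries lay below the WT libraries, by a narrow gap between WT replicate 2 and TG replicate 1. The log2 fold change was -0.49 (SE 0.18, 95% CI -0.92 to -0.06), the unadjusted p in edgeR's quasi-likelihood test was 0.0309, and the FDR was 0.148; without TG replicate 2 the estimate was -0.30 (FDR = 0.225).

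*Hes1*, the most abundant of the targets, and *Hey1*, the least abundant of the 10 genes, differed less. *Hes1* (chr16:30064384-30067796, plus strand) stood at 57.1, 55.7 and 50.5 CPM in WT and at 49.1, 41.8 and 59.0 CPM in TG, so that TG replicate 3 was above every WT library. Its log2 fold change was -0.12 (SE 0.13, 95% CI -0.42 to 0.17, FDR = 0.567), and without TG replicate 2 it was 0.0061. *Hey1* (chr3:8663359-8667256, minus strand) stood at 4.78, 4.81 and 4.76 CPM in WT and at 3.89, 3.53 and 4.49 CPM in TG. The WT libraries were close to each other and all TG libraries were below them, with a log2 fold change of -0.27 (SE 0.13, 95% CI -0.59 to 0.05, FDR = 0.253), which was -0.18 (FDR = 0.582) without TG replicate 2. *Hey1* was counted with 50 to 92 reads per library, so that counting error alone is larger than the spread seen between its WT libraries.

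*Rbpj* was the gene with higher TG values. It encodes the factor through which all Notch receptors reach the DNA, and which represses the same targets when no receptor domain is bound (chr5:53466152-53657362, plus strand). It stood at 68.5, 62.3 and 71.3 CPM in WT and at 78.6, 83.7 and 76.3 CPM in TG. All TG libraries were above all WT libraries. The log2 fold change was 0.24 (SE 0.07, 95% CI 0.07 to 0.41), a level 18.1% higher in TG, with an unadjusted p of 0.0121 in edgeR's quasi-likelihood test and an FDR of 0.0965, so that *Rbpj* was not called. Its estimate stayed between 0.19 and 0.29 with any 1 library left out.

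The start regions of these genes were searched for the core letters of the RBPJ motif, since RBPJ acts on Notch targets, and of the TEAD motif, since TEAD factors are the DNA-binding partners of YAP. The RefSeq promoters used here (250 bases before to 50 after a start, GRCm38.p6) matched 7 of the 10 genes with 9 promoters; *Hes1*, *Hey1* and *Heyl* had no entry. Both strands were searched, and the longer RBPJ form holds the shorter. TGGGAA (RBPJ core) was found in 2 of the 9 promoters (22.2%), against 25.6% of all 32851 promoters, and GTGGGAA in 0 of the 9, against 6.38% of all. CATTCC (TEAD core) was found in 2 of the 9 (22.2%), against 14.7% of all. The stretches with these matches are printed because they belong to *Notch1*, the gene that was called, and to *Rbpj*, the gene with the largest estimate above 0. Capitals mark the TEAD or RBPJ core or its reverse complement.
*Notch1*, chr2:26504029-26504058, minus strand: gccCATTCCatacacccctcCATTCCtcct
*Rbpj*, chr5:53590176-53590205, plus strand: gtcGGAATGaatgaaaaaggcTGGGAAccc
*Rbpj*, chr5:53590269-53590298, plus strand: gacgctcgcattTTCCCAggacccctcctc
The RefSeq starts used for *Notch1* and *Rbpj* lie inside the gene spans given above, so the outermost annotated starts were not searched. In *Notch1* the TEAD core was present at 2 places, 233 to 228 and 216 to 211 bases before the start. In *Rbpj* the TEAD core lay on the opposite strand 167 to 162 bases before the start, close to an RBPJ core at 149 to 144 bases, and a second RBPJ core lay on the opposite strand at 65 to 60 bases, which is also within the promoter of another *Rbpj* start. These matches describe the letters only, and no binding was measured. The shares in the 9 promoters rest on 2 promoters each. For the RBPJ core both of these belong to *Rbpj* and have a match in common.

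Levels of different genes were compared per kilobase of merged exons (CPM per kb). In WT skin the order was *Jag1* (30.6 ± 1.196), *Notch2* (28.4 ± 1.63), *Hes1* (26.7 ± 1.71), *Notch1* (22.9 ± 0.621), *Jag2* (10.5 ± 1.18), *Notch3* (9.43 ± 0.501), *Rbpj* (5.28 ± 0.361), *Dll1* (4.74 ± 0.418), *Heyl* (3.72 ± 0.448) and *Hey1* (1.47 ± 0.00885; SD, n = 3). The ranges of neighbours in this order overlapped for *Jag1* and *Notch2*, *Notch2* and *Hes1*, *Jag2* and *Notch3*, and *Rbpj* and *Dll1*, and were apart for the other 5 neighbouring pairs. In TG skin the upper places were taken by *Notch2* (28.6 CPM per kb), *Hes1* (24.5), *Jag1* (22.9) and *Notch1* (16.9), and the ranges overlapped for each neighbouring pair of these 4 genes and for *Jag2* and *Notch3*. The order of the upper 4 genes depends on the length used: per kilobase of the longest transcript, the WT order was *Hes1* (37.1), *Notch1* (34.4), *Jag1* (31.8) and *Notch2* (29.2). *Hey1* was the lowest on both scales and in both genotypes.

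**Figure D3:**
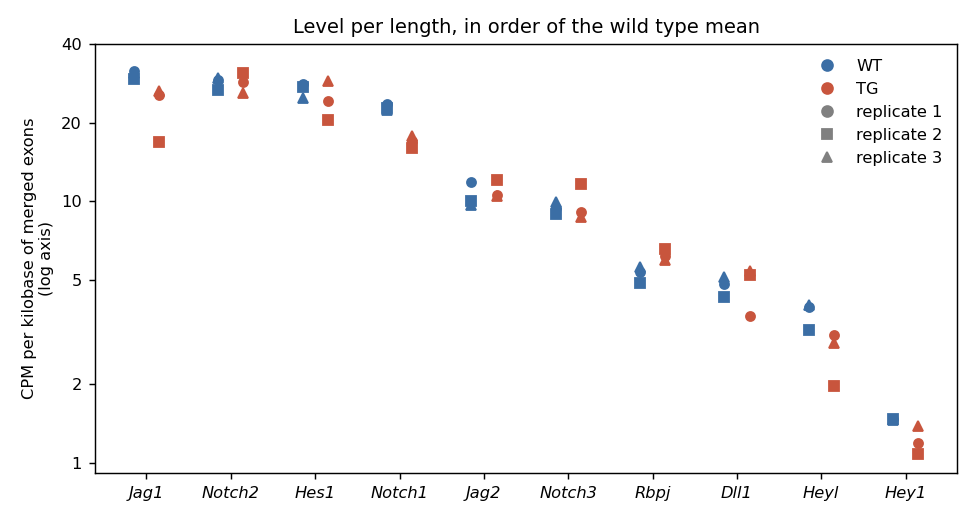
Level of each of the 10 Notch genes per kilobase of merged exons (TMM-scaled CPM per kb, vertical log axis), sorted from left to right by the WT mean, with a symbol per library and the genotypes side by side. *Jag1*, *Notch2*, *Hes1* and *Notch1* form the upper set between 22.9 and 30.6 in WT, and *Hey1* is lowest at 1.47.

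Leaving out TG replicate 2 moved the estimates of *Jag1*, *Hey1* and *Heyl* by more than 1.5 times, and that of *Hes1* from -0.12 to 0.0061. This library was the lowest TG library for 5 genes (*Notch1*, *Jag1*, *Hes1*, *Hey1* and *Heyl*) and the highest for 4 (*Notch2*, *Notch3*, *Jag2* and *Rbpj*), while TG replicate 3 was the lowest for 4 and the highest for 5, so that these counts do not set it apart. Against the WT mean, *Heyl* was -0.26, -0.91 and -0.36 on the log2 scale in TG replicates 1, 2 and 3, and *Jag1* was -0.27, -0.85 and -0.21. *Notch1* was more even, at -0.43, -0.52 and -0.36. The hair matrix, shaft and inner root sheath markers were also lowest in this library: all 11 genes measured of 12 listed (*Krt85* was not analysed here) were below the WT range in every TG library, where 18.2% of all genes tested were, with a median log2 fold change of -1.37. None of the 11 was called by the quasi-likelihood test, and 10 had an unadjusted p under 0.05 (13% of all genes tested in this direction). The likelihood-ratio test called 10 and DESeq2 called 2 (4.87% and 4.26% of all genes called lower). Without TG replicate 2 the quasi-likelihood test called 10, where 5.46% of all genes were called in either direction. None of them was at 0 in a library (lowest count 161). The part of the hair follicle markers in the lower *Jag1*, *Heyl* and *Notch1* values was not tested.

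Other cell classes that express Notch genes were measured in the same libraries. The sum over 5 leukocyte markers was 251 to 312 CPM in WT and 389 to 425 CPM in TG, with 2 called higher (1.44% of all genes tested were). The scaling and filter alternatives and the likelihood-ratio test called 3 of the 5, voom 2 and DESeq2 4. Of all genes, the likelihood-ratio test, voom and DESeq2 called 5.52%, 1.23% and 6.48% higher. The quasi-likelihood test called 3 without TG replicate 2, where 5.46% of all genes were called in either direction. It called 0 when a WT library, TG replicate 1 or TG replicate 3 was left out. The sum over 7 endothelial markers was 118 to 138 CPM in WT and 140 to 166 CPM in TG, and over 6 fibroblast markers 9449 to 12801 CPM in WT and 12256 to 15936 CPM in TG; none of either list was called by the quasi-likelihood test, while 2 and 3 genes respectively had an unadjusted p under 0.05 (13.3% of all genes tested in this direction), and DESeq2 called 0 and 2. The 7 vascular mural markers were split: none was called by the quasi-likelihood test or voom, while 3 higher (*Myh11*, *Pdgfrb* and *Rgs5*) and 2 lower (*Tagln* and *Acta2*) had an unadjusted p under 0.05, against 13.3% and 13% of all genes tested. The log2 fold changes were 0.49 for *Myh11*, 0.39 for *Pdgfrb*, 0.33 for *Rgs5*, -0.60 for *Tagln* and -0.40 for *Acta2*, the smooth muscle actin and most abundant of the list (FDR = 0.0982); those other than *Acta2* are named to complete this count. DESeq2 called 4 of them, all but *Rgs5* (6.48% of all genes were called higher and 4.26% lower), and the likelihood-ratio test called *Tagln*. The most abundant marker of each other class had log2 fold changes of 0.53 for *Lyz2* (leukocyte, FDR = 0.0505), 0.32 for *Pecam1* (endothelial, FDR = 0.109), 0.40 for *Col3a1* (fibroblast, FDR = 0.169), -0.11 for *Fabp4* (adipocyte, FDR = 0.806), -1.19 for *Myh4* (muscle, FDR = 0.270), 0.58 for *Krt10* (suprabasal, FDR = 0.245) and -1.23 for *Tchh* (hair follicle, FDR = 0.225), none called by the quasi-likelihood test. Without TG replicate 2 the estimates were 0.22 for *Krt10* and -0.76 for *Tchh*, and without WT replicate 2 that of *Myh4* was -0.78. Adipocyte markers (622 to 869 CPM in WT, 544 to 901 CPM in TG) and skeletal muscle markers (1096 to 5871 CPM in WT, 987 to 2781 CPM in TG) overlapped between the genotypes, and the muscle sum spread widely within WT.

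**Figure D4:**
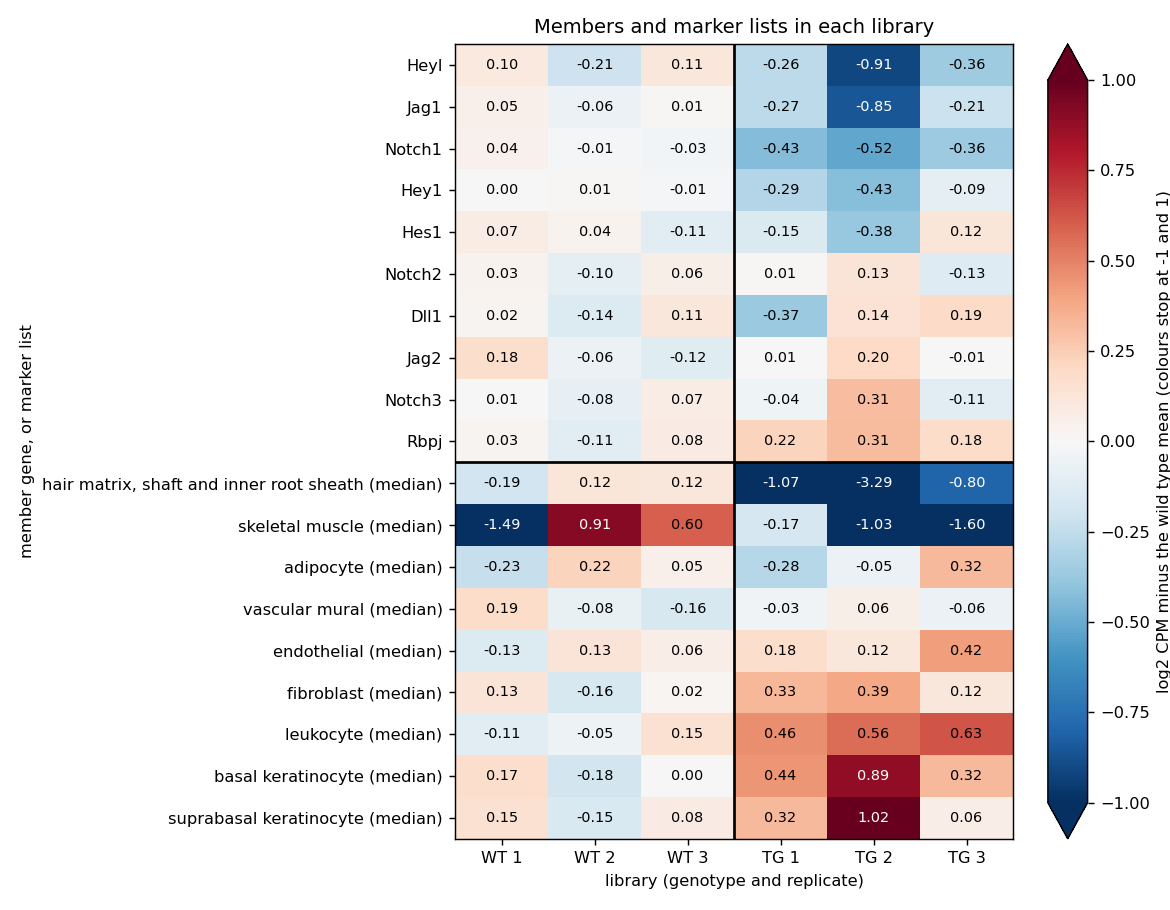
Log2 CPM minus the WT mean for each of the 10 Notch genes (upper block) and the median of each cell class marker list (lower block) in each of the 6 libraries; blue is below and red above the WT mean, with colours stopping at -1 and 1. TG replicate 2 holds the deepest values of *Heyl* (-0.91), *Jag1* (-0.85) and the hair follicle list, and *Notch1* is below the WT mean in all 3 TG libraries.

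The rest of the pathway was taken from a list of 55 further genes of Notch processing, ligand handling and transcription, of which 49 passed the filter on low counts. Of these, 1 was called higher and 0 lower by the quasi-likelihood test, against 1.44% and 0.464% of all genes tested. The median log2 fold change was 0.0054, with 25 estimates above 0 and 24 below, and 9 genes higher and 7 lower had an unadjusted p under 0.05, where the shares over all genes tested were 13.3% and 13%. The likelihood-ratio test called 3 higher (*Dlk2*, *Dtx4* and *Neurl1b*) and 1 lower (*Hes2*). With voom only *Dtx3l* was called, as higher. DESeq2 called 5 higher (*Dtx3l*, *Dtx4*, *Neurl1b*, *Furin* and *Adam17*) and 1 lower (*Hes2*). These tools called 5.52%, 1.23% and 6.48% of all genes higher, and 4.87%, 0.417% and 4.26% lower. The 6 genes left untested for low counts were *Dll3*, *Dner*, *Dlk1*, *Hes3*, *Hes5* and *Hes7*, with at most 11 counts in a library.

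The gene that was called, *Dtx3l*, was listed in the group for ubiquitination of receptors and ligands, with *Numb*. No action of *Dtx3l* on Notch proteins was measured. Of the 13 genes tested in this group, 7 estimates were above 0 and 6 below. An unadjusted p under 0.05 was found for 3 higher and 1 lower, against 13.3% and 13% of all genes tested. *Dtx3l*, a Deltex family ubiquitin ligase, stood at 22.1, 22.3 and 23.6 CPM in WT and at 28.9, 29.2 and 31.5 CPM in TG. The groups were well apart, and *Dtx3l* rose by a log2 fold change of 0.40 (SE 0.07, FDR = 0.0456); it was called by voom (FDR = 0.0482) and DESeq2 (FDR = 0.00709), not by the likelihood-ratio test (FDR = 0.0643), and in 1 of the 6 fits with a library left out (FDR = 0.0339 without TG replicate 2, and up to 0.186 in the others). It shares 458 exon bases with its neighbour on the opposite strand, *Parp9*, a partner of the same protein that is named for this overlap, which had a like log2 fold change of 0.41 (FDR = 0.0596); reads of the shared bases cannot be told apart here. *Dtx4*, another Deltex ligase, went from 15.4 to 25.2 CPM (means; log2 fold change 0.70, FDR = 0.0622) and *Neurl1b*, a ligand ubiquitin ligase, had a log2 fold change of 0.46 (FDR = 0.0616), neither past the threshold. *Numb*, an inhibitor that directs receptors to degradation, had a log2 fold change of -0.25 (FDR = 0.0769).

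Among the genes that glycosylate the receptors or make their first cuts none was called by the quasi-likelihood test, the likelihood-ratio test or voom, and of the 8 tested 3 higher and 1 lower had an unadjusted p under 0.05, against 13.3% and 13% of all genes tested. Those with higher levels were *Adam17*, a protease of the receptor's outer cut (log2 fold change 0.26, FDR = 0.0870), *Furin*, the convertase of the immature receptor (0.32, FDR = 0.0936), and *Mfng*, a Fringe glycosyltransferase (0.61, FDR = 0.153). The gene with lower levels was *Poglut1*, a glucosyltransferase of the receptors (-0.17, FDR = 0.190); it and *Mfng* are named to complete this count. DESeq2 called 2 of the 8 higher, *Furin* and *Adam17*, against 6.48% of all genes called higher. In the nucleus, *Ctbp2*, a corepressor, had a log2 fold change of -0.31 (FDR = 0.0621) and *Snw1*, a cofactor of RBPJ, of -0.20 (FDR = 0.0913). *Dlk2*, a Delta-like protein that can act as an inhibitory ligand, went from 2.31 to 4.11 CPM (log2 fold change 0.84, FDR = 0.0719) on 27 to 87 counts per library.

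Of the remaining HES and HEY family and feedback genes 4 were tested (*Hes2*, *Hes6*, *Hey2* and *Nrarp*). None was called by the quasi-likelihood test, and 2 (*Hes2* and *Hes6*) had an unadjusted p under 0.05 in the direction of lower levels, against 13% of all genes tested. All 4 estimates were below 0, as were those of 7908 of the 15102 genes tested. That of *Hey2*, a gene named after its values were seen, was -0.047 (SE 0.31). It was above 0 with voom, with a block on replicate number, and when WT replicate 1 or TG replicate 3 was left out. *Hes2*, named here after its values were seen, stood at 6.38, 5.02 and 5.61 CPM in WT and at 3.11, 0.588 and 3.06 CPM in TG. Its log2 fold change was -1.33 (SE 0.49, FDR = 0.146), and without TG replicate 2, its lowest library, it was -0.86 (FDR = 0.0367, called). *Hes6*, also named after its values were seen, which can counter HES1, had a log2 fold change of -0.45 (FDR = 0.131).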

How the data were processed

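Whole skin RNA of 3 WT and 3 TG mice was sequenced as paired-end libraries. The deposited values are raw counts per gene, which the authors made by aligning reads to GRCm38 with TopHat2 (2.0.12 in the submitters' processing notes) and Bowtie2 (2.1.0) and counting uniquely mapped reads with HTSeq; the strand setting and annotation release are not given in the sources used here. The labels name a stranded total RNA kit and also mRNA libraries. Nothing says more about the replicates than separate littermate mice, and p-values measure the spread between these libraries.

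The counts were analysed in R 4.3.3 with edgeR 4.0.16 (TMM factors, genes at 1 CPM or more in at least 3 libraries, quasi-likelihood F test, Benjamini-Hochberg adjustment over 15102 genes, FDR threshold 0.05). The standard error is the log2 fold change over the square root of F. Alternatives were the likelihood-ratio test, limma 3.58.1 voom, DESeq2 1.42.0, other scaling and filters, each library left out in turn, and a block on replicate number. Per-gene lengths and positions came from GENCODE M21, and promoters from RefSeq. The script was tested on simulated data. Chi-square comparisons of counts found no library deposited in duplicate.

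The 10 genes, the wider list and the marker lists were chosen with earlier results of these data known, so list counts are descriptions. Named genes were the 10, those called or among the 10 lowest p values of the wider list, the most abundant marker of each class, and the 3 nearest profiles to *Notch1*; exceptions are stated where they occur, and 1 gene of the wider list is not reported here. Library totals limit the precision of low genes, and intervals cover the spread between libraries.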

Additional observations from a re-analysis of the deposited data

How the results depend on the processing

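*Notch1* was lower in TG under every alternative tried, and its FDR ranged from 7.08e-06 (DESeq2) to 0.178 (without WT replicate 2). The number of the 10 Notch genes called lower was 1, and 0 with a replicate block; leaving out 1 library at a time gave 0 to 1. Of the wider list, 1 gene was called higher, against 3 with the likelihood-ratio test, 5 with DESeq2 and 0 with the replicate block, and 0 to 1 with a library left out. None of the wider list was called lower, against 1 with the likelihood-ratio test, 1 with DESeq2, and 0 to 1 with a library left out. Over all genes the calls numbered 288, against 1568 with the likelihood-ratio test, 1590 with DESeq2, 817 without TG replicate 2, 142 without WT replicate 1, 83 without TG replicate 1, and 0 without WT replicate 2, WT replicate 3 or TG replicate 3. The cause was not tested.

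Same-numbered WT and TG libraries did not deviate together (correlations of -0.33, -0.23 and -0.05). The deviations were taken within each genotype, so these correlations cannot decide whether the numbers pair the mice. With the replicate block edgeR's quasi-likelihood test called 0 of 15102 genes (2949 at an unadjusted p under 0.05), and *Notch1* had an FDR of 0.169.

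Small estimates changed sign: *Dll1* was -0.0072 with voom and -0.014 with the replicate block, *Hey2* was 0.00091 with voom and 0.0026 with the replicate block, and with a library left out the log2 fold changes ran from -0.095 to 0.18 for *Dll1*, -0.040 to 0.073 for *Notch2*, -0.062 to 0.14 for *Notch3*, -0.26 to 0.0061 for *Hes1*, -0.27 to 0.35 for *Hey2*, and -0.40 to 0.097 for *Fabp4*, an adipocyte marker. Neighbouring genes with WT ranges apart in level per kilobase numbered 5, and 5 to 8 with a library left out. Without the TMM factor 3 of the 10 genes separated the genotypes, against 5 with it. Of all genes tested, 33.8% separated with the factor, and the share without it was not computed.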

Other observations

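The genes whose centred log2 CPM profile over the 6 libraries lay nearest to that of *Notch1* were *Trim45*, *Tmem199* and *Emp1*, with root mean square distances of 0.0276, 0.0348 and 0.0379 on the log2 scale. Their log2 fold changes were -0.46, -0.44 and -0.43, with FDR of 0.0755, 0.0564 and 0.0331 in edgeR's quasi-likelihood test, so of these *Emp1* was called. Nearness among 15102 genes over 6 libraries is a description.

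Other genes that share exon bases with the Notch genes had few counts: *Gm17276*, which shares 488 bases with *Notch3*, had 0 to 5 counts per library. *Notch2* shares 541 bases on its own strand with *Gm42820*, which was not analysed here. No overlap with another gene was found for the other 6 Notch genes.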
